A study of Homo sapiens with 8 samples.

Results

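The regions described here are those to which the authors gave the name of a microRNA or of a microRNA host gene, in DNA captured by RNA oligos. A region was taken when any of its names began with MIR and a digit or with MIRLET, and the imprinted domain of chromosome 14 that holds MEG3 was left out. This gave 4824 of 327994 regions, 4014 of them captured and 810 control, with 1196 names, 46 of which name host genes. They lie on 23 chromosomes, with 503 on chromosome 1, 363 on chromosome 11, 354 on chromosome 19 and 4 on X.

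The study asked where RNA oligos bind DNA of H1, a human embryonic stem cell line. The oligos MEG3 TFR1 and MEG3 TFR2 come from the long noncoding RNA MEG3, and the oligo GATA6-AS TFR1 from GATA6-AS. In each oligo group, 20 pmol of the biotinylated oligo were kept for 1 h at 37 °C with 6 to 7 µg of H1 DNA, in 50 mM KCl and 5 mM MgCl2. The DNA had been freed of RNA and sonicated to about 200 to 300 bp. Bound DNA was recovered on streptavidin beads, released by RNase and sequenced. The no-oligo group went through the same steps without an oligo, and each of the 4 groups had 2 libraries from independent experiments. A captured region had more signal with the oligo than without, a control region had less, and the only value of a region is the authors' log2 ratio of oligo over no oligo, on hg38. No region has a value per library, the read depth is unknown and p-values were not used here, so no test between groups could be made, and the 3 comparisons share the no-oligo libraries. Naked DNA of 1 cell line was used, so the values say nothing of chromatin or of microRNA levels.

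MicroRNAs are short RNAs that pair through their seed, bases 2 to 8, with messenger RNAs and lower their translation or stability. Each is cut from a hairpin that lies in its own transcript, in an intron or exon of a protein-coding gene, or in a noncoding host gene. In an RNA-DNA triplex, a single RNA strand lies in the major groove of duplex DNA and reads a run of purines on 1 strand.

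The name marks a neighbourhood more than a gene. Of the members, 4128 (85.6%) carried the name only with a plus or minus sign and are called flank regions. Another 404 (8.37%) carried a microRNA name without a sign and 292 (6.05%) a host gene name without a sign. The sign gives the side on which the named gene lies. All 2890 placed names with a plus lay below the gene's coordinates and all 1239 with a minus above them. In flanks named for a microRNA the median distance was 43.2 kb for a plus and 22.7 kb for a minus, and the largest was 101 kb. All 420 placed microRNA names without a sign lay within 999 bp of the hairpin, and 162 of those regions overlapped it. Of 299 host gene names without a sign, 223 lay within 1 kb of the RefSeq gene and the farthest was 308 kb away. Another RefSeq gene, on either side or overlapping the region, was nearer than the named gene for 92.1% of captured and 83.8% of control flank regions. Of captured flank regions 35.0%, and of control flank regions 29.4%, lay inside a protein-coding gene. The description as regions at microRNA genes thus fits the microRNA names without a sign and most host names without one, and the other regions lie in flanks.

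**Figure D1:**
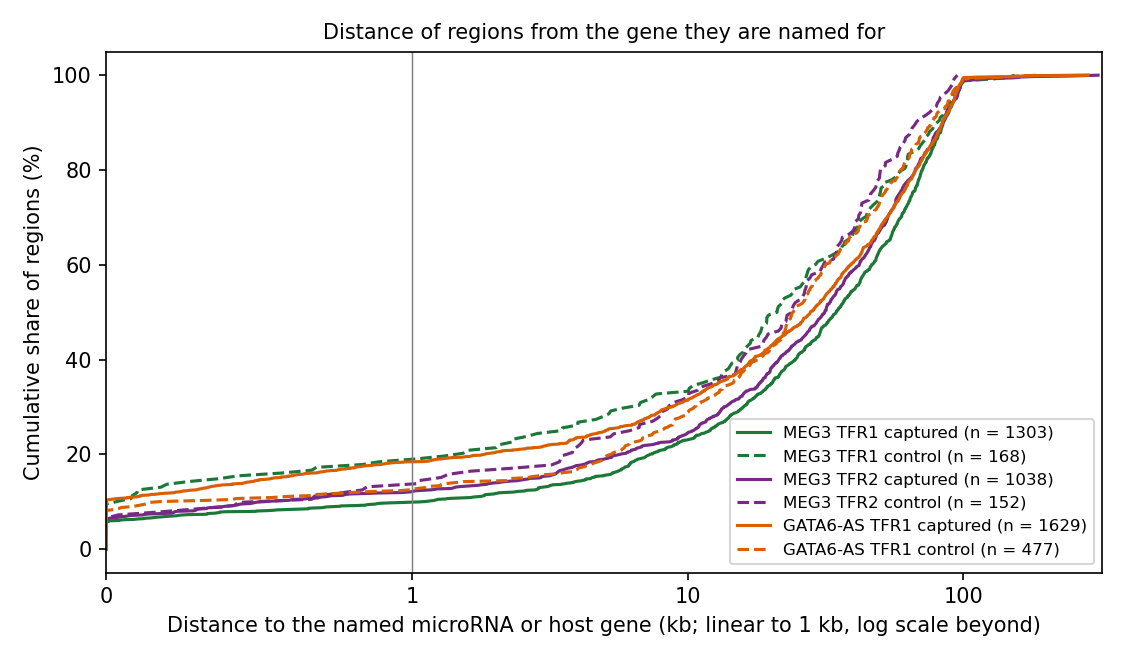
Cumulative share of microRNA-named regions (%) against the distance in kb to the nearest gene they are named for, on a scale that is linear to 1 kb and logarithmic beyond, for captured (solid) and control (dashed) regions of each oligo. Most of each curve lies beyond 1 kb, and the median distance of placed flank regions was 37.2 kb for captured and 27.3 kb for control regions.

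The sequences shown first belong to the microRNAs whose hairpins were covered by a captured region of more than 1 oligo, with the largest ratios first and with MIR196A2 kept for the next set. Here and below, a region covers a hairpin, or lies over it, when it overlaps any part of it, so the whole hairpin need not lie in the region. They are RefSeq sequences of GRCh38.p14, read 5′ to 3′, with the seed in capitals. RefSeq sequences were found for 58 of 61 such genes.
hsa-miR-3138: uGUGGACAgugagguagagggagu
hsa-miR-6165: cAGCAGGAggugaggggag
hsa-miR-647: gUGGCUGCacucacuuccuuc
hsa-miR-378i: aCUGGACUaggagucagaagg
hsa-miR-629-5p: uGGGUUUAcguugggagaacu
hsa-miR-629-3p: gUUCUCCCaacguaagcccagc
hsa-miR-3692-5p: cCUGCUGGucaggaguggauacug
hsa-miR-3692-3p: gUUCCACAcugacacugcagaagu
hsa-miR-184: uGGACGGAgaacugauaagggu
No seed is shared among these 9 RNAs. MIR3138 (chr4:10078611-10078692, minus strand) lies inside WDR1, MIR6165 (chr17:49510817-49510900, plus strand) inside NGFR, which encodes the p75 neurotrophin receptor, and MIR647 (chr20:63942631-63942726, minus strand) inside UCKL1. MIR629 (chr15:70079372-70079468, minus strand) lies inside TLE3, a Groucho-type corepressor gene, and MIR3692 (chr6:157529132-157529200, plus strand) inside ZDHHC14. MIR378I (chr22:41923222-41923297, minus strand) lies inside TNFRSF13C, the gene of a B cell receptor for BAFF. MIR184 (chr15:79209788-79209871, plus strand), whose RNA is known from the cornea and lens, lies outside protein-coding genes. The annotation used gives gene ends and no exons.

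The next set comes from HOX clusters, where every listed microRNA had a captured region within 1 kb for MEG3 TFR1 and GATA6-AS TFR1. The seed is in capitals.
hsa-miR-196a-5p: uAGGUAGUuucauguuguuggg
hsa-miR-196b-5p: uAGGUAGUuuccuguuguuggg
hsa-miR-10a-5p: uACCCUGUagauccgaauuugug
The miR-196 RNAs share the seed AGGUAGU and derive from MIR196A1 (chr17:48632490-48632559, minus strand), MIR196A2 (chr12:53991738-53991847, plus strand) and MIR196B (chr7:27169480-27169563, minus strand). MIR10A lies at chr17:48579838-48579947, on the minus strand inside HOXB3.

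The last mature set belongs to the chromosome 19 microRNA cluster, where hairpins were covered by control regions, with the seed in capitals.
hsa-miR-525-5p: cUCCAGAGggaugcacuuucu
hsa-miR-525-3p: gAAGGCGCuucccuuuagagcg
hsa-miR-520d-5p: cUACAAAGggaagcccuuuc
hsa-miR-520d-3p: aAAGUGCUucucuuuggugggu
MIR525 lies at chr19:53697533-53697617 and MIR520D at chr19:53720096-53720182, both on the plus strand.

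MicroRNA-named regions took similar shares of the captured and control lists. With MEG3 TFR1 they were 1319 of 89739 captured regions (1.47%, 95% Wilson interval 1.39 to 1.55) and 171 of 12649 control regions (1.35%, 1.16 to 1.57). With MEG3 TFR2 they were 1047 of 73546 captured regions (1.42%, 1.34 to 1.51) and 154 of 10944 control regions (1.41%, 1.20 to 1.65). With GATA6-AS TFR1 they were 1648 of 104786 captured regions (1.57%, 1.499 to 1.65) and 485 of 36330 control regions (1.33%, 1.22 to 1.46), and these intervals alone did not overlap. The order did not hold under every setting for the MEG3 oligos. With the named gene within 50 kb, the captured share lay below the control share for MEG3 TFR1 (0.919% and 0.996%) and for MEG3 TFR2 (0.952% and 1.11%). Intervals here and below cover counting error only, and neighbouring regions are not independent.

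The size of the ratio was that of the lists as a whole. The median log2 ratio of named captured regions was 1.41 with MEG3 TFR1, where all captured regions had 1.41. With MEG3 TFR2 it was 1.43 against 1.44 for all captured regions, and with GATA6-AS TFR1 1.34 against 1.34. Named control regions had medians of -1.51, -1.45 and -1.50 in the same order of oligos, against -1.53, -1.46 and -1.57 for all control regions. Named captured regions spanned log2 ratios of 0.67 to 4.29, 0.59 to 3.64 and 0.52 to 4.14 and had median widths of 400, 350 and 400 bp. Wider named captured regions had smaller ratios, with Spearman's rho across regions of -0.48, -0.43 and -0.33, where the regions of a list share libraries and depth. Named control regions showed the same for the size of the ratio, with -0.71, -0.73 and -0.68, so it is no trait of captured regions alone.

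The number of captured regions per control region differed with position. At microRNAs, that is with a microRNA name without a sign, there were 66 captured and 12 control regions with MEG3 TFR1, 81 and 8 with MEG3 TFR2, and 214 and 23 with GATA6-AS TFR1. This is 5.5, 10.1 and 9.30 captured regions per control region, against 7.09, 6.72 and 2.88 in the whole lists. With a host gene name without a sign there were 72 captured and 18 control regions with MEG3 TFR1 and 57 and 14 with MEG3 TFR2. With GATA6-AS TFR1 there were 86 and 45. This is 4.0, 4.07 and 1.91 captured per control region. Flank regions had 8.38, 6.89 and 3.23. By these names, host genes had fewer captured regions per control region than the whole list with each oligo. MicroRNAs had more with MEG3 TFR2 and GATA6-AS TFR1 but not with MEG3 TFR1. The order for host genes turned by position. Regions overlapping a host gene, whatever their names, were 192 captured and 19 control with MEG3 TFR1 and 154 and 19 with MEG3 TFR2. With GATA6-AS TFR1 they were 243 and 61. Counted so, host genes had more captured regions per control region than the whole list with each oligo. The median log2 ratio of captured regions at microRNAs was 1.42, 1.52 and 1.39 in the same order of oligos.

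**Figure D2:**
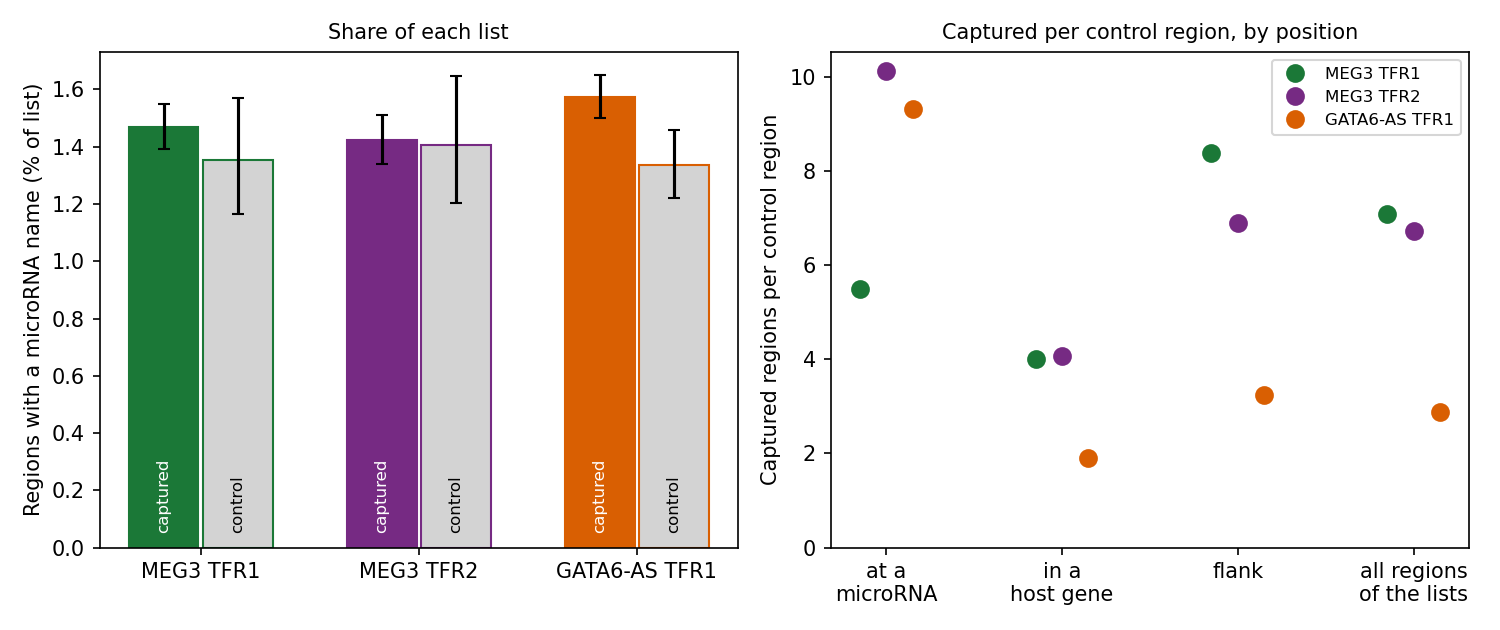
Left, microRNA-named regions as a share of each list (%), captured in colour and control in grey, with 95% Wilson intervals. Right, captured regions per control region for members grouped by name (at a microRNA, in a host gene, in flanks) and for all regions of the lists. With GATA6-AS TFR1 the value was 9.30 at microRNAs and 2.88 over all regions.

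The captured regions with the largest ratios were mostly flanks. With MEG3 TFR1 the highest was a 300 bp region on chromosome 8, 41184851 to 41185150, 85.9 kb from MIR548AO, with a log2 ratio of 4.29 (19.6-fold). The next was 20.3 kb from MIR6129 (13.2-fold), and the regions after it were named for MIR4671 (11.4-fold), MIR8071-1 (11.1-fold) and MIR646HG (10.2-fold, 56.4 kb away). Regions named for MIR5008 (10.1-fold), MIR548A1 (10.0-fold), MIR8070 (9.47-fold), MIR4697HG (9.14-fold) and MIR6768 (8.86-fold) followed. All 10 were flank regions, and of these the MIR6768 region lay inside a protein-coding gene, CCNF, which encodes cyclin F.

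With MEG3 TFR2 the highest was a 200 bp region named for MIR5689 inside TFAP2A (12.4-fold), the gene of a neural crest and ectoderm transcription factor. A 150 bp region inside MIR4300HG (8.86-fold) and a 150 bp region over the MIR769 hairpin itself (8.75-fold) came after a flank of MIR5192 (9.81-fold). The others of the 10 were flanks named for MIR6877 (8.60-fold), MIR153-2 (8.38-fold), MIR1909 (8.17-fold), MIR202HG (8.05-fold), MIR147A (8.0-fold) and MIR4642 (7.93-fold).

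With GATA6-AS TFR1 the highest was a 250 bp region inside ATP8B3, 26.0 kb from MIR1909 (17.6-fold). Flanks of MIR937 (13.5-fold), MIR8077 (10.7-fold, inside ERF) and MIR5189 (9.71-fold) came next. A second 150 bp region inside MIR4300HG reached 8.57-fold, at another place than the MEG3 TFR2 region. A region overlapping part of the MIR6799 hairpin inside AP2A1, the gene of a clathrin adaptor subunit, reached 8.19-fold. Another region, 482 bp from MIR378D2, reached 7.75-fold. Flanks of MIR4418 (7.93-fold), MIR130A (7.57-fold) and MIR378D1 (7.25-fold) completed the 10.

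Control regions reached further than captured ones with MEG3 TFR1. There a 250 bp region 77.4 kb from MIR4291 had a log2 ratio of -5.29, that is 39-fold more signal without the oligo, and a region 38.6 kb from MIR3142HG had -4.54. The next were named for MIR4477B (-3.54), MIR549A (-2.54) and MIR3169 (-2.47). With MEG3 TFR2 the most negative were flanks of MIR4418 (-3.44), MIR101-1 (-2.70, inside JAK1), MIR7158 (-2.52), MIR640 (-2.48) and MIR4635 (-2.42). With GATA6-AS TFR1 they were named for MIR4682 (-3.77), MIR7158 (-3.72), MIR187 (-3.51), MIR548XHG (-3.42) and MIR4692 (-3.19). The MIR7158 region was the same 250 bp in both lists, and both lists were set against the same no-oligo libraries.

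Some names drew many regions. With MEG3 TFR1, MIR646HG had 19 captured regions and 0 control regions, MIR3681HG 18 and 3, MIR3201 11 and 1, MIR4255 9 and 0, and MIR5093 9 and 1. With MEG3 TFR2, MIR3681HG had 14 captured regions and 1 control region, MIR646HG 14 and 2, MIR4300HG 9 and 1, MIR7159 8 and 1, and MIR4418 7 and 1. With GATA6-AS TFR1, MIR9-3HG had 17 captured regions and 1 control region, MIR5093 14 and 0, MIR4686 13 and 0, MIR6815 13 and 0, and MIR3201 12 and 1. These counts were not divided by the length of the gene or flank, so they are not densities. In the whole lists there were 7.09 captured regions per control region with MEG3 TFR1, 6.72 with MEG3 TFR2 and 2.88 with GATA6-AS TFR1. More captured than control regions is thus the rule in each list, and these names were chosen by their captured counts. Whether a name exceeds its list was not tested.

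MIR3681HG differed in kind between the oligos' lists. The name of this 571 kb host gene on chromosome 2 stood on 18 captured and 3 control regions with MEG3 TFR1. It stood on 14 and 1 with MEG3 TFR2, and on 6 and 15 with GATA6-AS TFR1. Inside the RefSeq ends of the gene, the counts were 12 and 1, 9 and 1, and 3 and 12 in the same order of oligos. With GATA6-AS TFR1 its control regions reached a log2 ratio of -2.92 and its captured regions 2.57. The whole list of GATA6-AS TFR1 also held fewer captured regions per control region (2.88) than that of MEG3 TFR1 (7.09) or MEG3 TFR2 (6.72). The difference between the oligos was not tested. MIR1299 on chromosome 9 was named most often in the control lists of the MEG3 oligos, with 2 captured and 5 control regions for MEG3 TFR1, 1 and 4 for MEG3 TFR2, and 1 and 7 for GATA6-AS TFR1.

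Host genes were also counted by position, whatever the regions were called. The 82 host genes on autosomes span 6.68 Mb. MIR381HG, in the chromosome 14 domain left out elsewhere and of the RefSeq genes compared below, is among them. It held a captured region of GATA6-AS TFR1. Of these, 45 (54.9%) held a captured region of MEG3 TFR1, 40 (48.8%) of MEG3 TFR2 and 56 (68.3%) of GATA6-AS TFR1, while 16, 15 and 27 (19.5%, 18.3% and 32.9%) held a control region. Of all 56630 RefSeq genes on autosomes, 34.3%, 31.5% and 38% held a captured region in the same order of oligos, and 10.3%, 9.31% and 20.7% a control region. Host genes are long, and the comparison changes among genes of like length. Among the 40 hosts in the middle range of host lengths, 5.0 to 73.1 kb, 57.5%, 42.5% and 60% held a captured region, against 51.1%, 46.7% and 54.6% of the 23742 genes of that range. Control regions stood in 17.5%, 15% and 30% of those hosts, against 11.8%, 10.8% and 27.7% of those genes. At like length the host shares were thus near those of other genes, above them with MEG3 TFR1 and GATA6-AS TFR1 and below with MEG3 TFR2 for captured regions. MIR3667HG on chromosome 22 (243 kb) held the most, with 21 captured regions of MEG3 TFR1, 16 of MEG3 TFR2 and 42 of GATA6-AS TFR1, against 0, 0 and 1 control regions. MIR9-1HG (25.3 kb), host of a microRNA of the neural miR-9 family, held 10, 8 and 11 captured regions in the same order of oligos and no control region. Its highest ratios were 4.14-fold, 3.63-fold and 5.75-fold. MIRLET7BHG (27.9 kb), the host of let-7 hairpins, held 1, 1 and 10 captured regions and no control region inside its RefSeq ends, with a highest ratio of 4.87-fold with GATA6-AS TFR1. Outside those ends, control regions that carry its name without a sign were 1 with MEG3 TFR2 (a log2 ratio of -0.80) and 2 with GATA6-AS TFR1 (down to -1.94). MIR570HG held 5, 2 and 3 captured regions against 1, 4 and 6 control regions. These 4 genes were singled out after their values were seen. Their counts are to be read against the captured regions per control region of the whole lists, given above.

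Since many regions over a hairpin carry another gene's name, microRNA genes were also read by position. Of 1739 microRNA genes on autosomes, a captured region carried the gene's own name without a sign for 64 (3.68%) with MEG3 TFR1, 79 (4.54%) with MEG3 TFR2 and 187 (10.8%) with GATA6-AS TFR1, and a control region for 13 (0.748%), 8 (0.46%) and 25 (1.44%). By position, 297 genes (17.1%), 246 (14.1%) and 529 (30.4%) had a captured region within 1 kb, and 47 (2.7%), 31 (1.78%) and 78 (4.49%) a control region. A region named MIR1303 with a plus, for example, covered the MIR3141 hairpin with MEG3 TFR1 (4.31-fold).

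For a like comparison of genes of unequal length, the gene midpoint was used. A captured region lay within 1 kb of the midpoint of 16.8% of microRNA genes with MEG3 TFR1 (95% Wilson interval 15.2 to 18.7), of 13.7% with MEG3 TFR2 (12.2 to 15.4) and of 30.0% with GATA6-AS TFR1 (27.9 to 32.2). Over all 56630 RefSeq genes on autosomes the shares were 11.3%, 8.76% and 15.4%, and over protein-coding genes 14.9%, 12.2% and 21.9%. snoRNA genes, which are also short and often intronic, had 5.98%, 6.17% and 12.5%. tRNA genes had 15.5%, 5.47% and 15.3%, and with MEG3 TFR1 their interval (12.4 to 19.2) overlapped that of microRNA genes. Control regions lay within 1 kb of the midpoint of 2.59%, 1.73% and 4.37% of microRNA genes, against 1.42%, 1.19% and 3.67% of all genes. Clustered microRNA genes share regions, and no test of these shares was made.

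**Figure D3:**
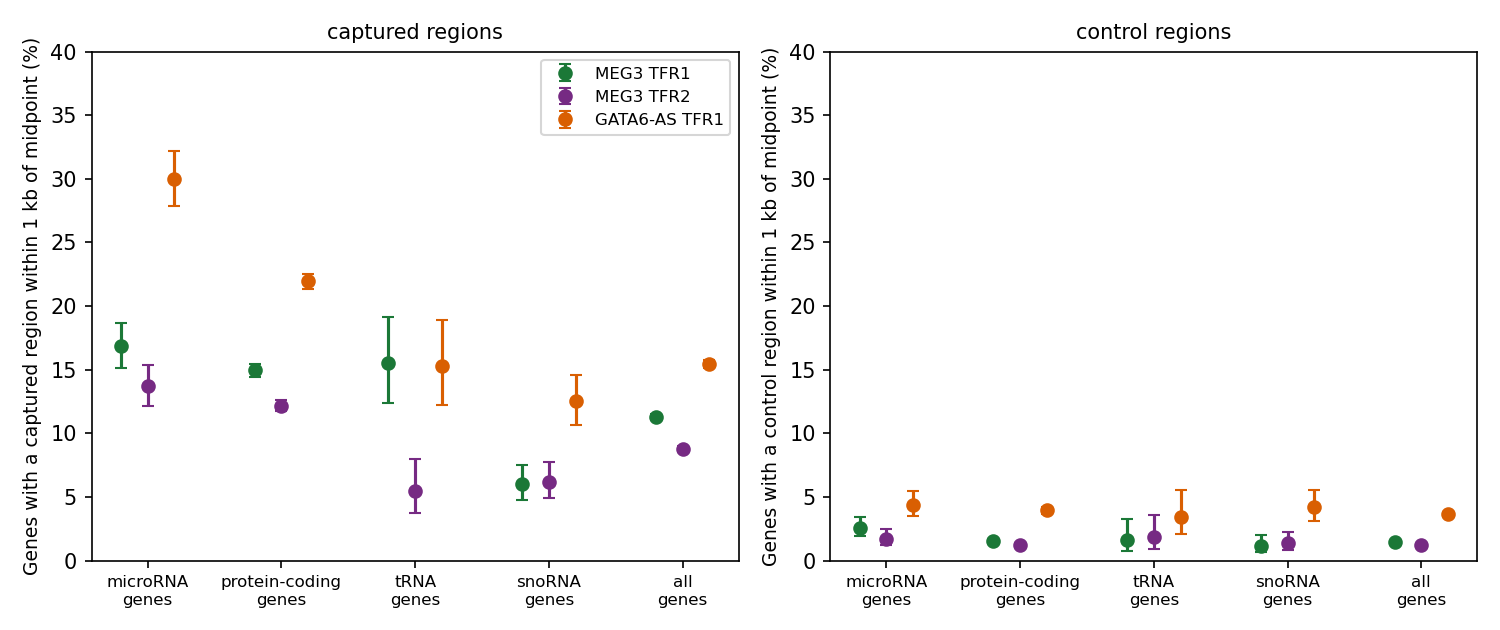
Share of genes (%) with a captured (left) or control (right) region within 1 kb of the gene midpoint, for microRNA, protein-coding, tRNA, snoRNA and all RefSeq genes on autosomes, by oligo, with 95% Wilson intervals. The GATA6-AS TFR1 point for microRNA genes stands at 30.0%, above the 15.4% of all genes.

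Captured regions covered 69 hairpins with MEG3 TFR1, 62 with MEG3 TFR2 and 206 with GATA6-AS TFR1, and control regions 7, 3 and 13. Of the covered hairpins, the region carried the microRNA's own name for 21, 29 and 98. Of 1141 microRNA genes inside protein-coding genes and 598 outside, GATA6-AS TFR1 regions covered 14.6% (95% Wilson interval 12.7 to 16.8) inside and 6.52% (4.81 to 8.79) outside. MEG3 TFR1 regions covered 4.82% (3.72 to 6.22) and 2.34% (1.40 to 3.89), and MEG3 TFR2 regions 4.21% (3.19 to 5.53) and 2.34% (1.40 to 3.89), where the intervals overlapped. Within 1 kb, the intervals did not overlap with any oligo. There MEG3 TFR1 had 19.4% (17.2 to 21.8) inside and 12.7% (10.3 to 15.6) outside, and MEG3 TFR2 16.0% (13.9 to 18.2) and 10.7% (8.47 to 13.4). GATA6-AS TFR1 had 34.1% (31.4 to 36.9) and 23.4% (20.2 to 27.0).

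With MEG3 TFR1 the highest covered hairpins were MIR125A (4.91-fold), which lies in 1 cluster with MIRLET7E and MIR99B, MIR7162 (4.42-fold), MIR3141 (4.31-fold) and MIR647 (4.24-fold). MIR153-1 inside PTPRN (3.79-fold), MIR3173 (3.75-fold), MIR7974 (3.67-fold), MIR6079 (3.57-fold), MIR4793 (3.38-fold) and MIR6762 (3.29-fold) followed. MIR3173 lies inside DICER1, the gene of the enzyme that cuts microRNA hairpins.

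With MEG3 TFR2 they were MIR769 (8.75-fold), MIR3138 (7.29-fold), MIR6165 (6.50-fold), MIR551A (4.52-fold) and MIR378I (4.46-fold), then MIR629 (4.33-fold), MIR3692 (4.15-fold), MIR6512 (3.84-fold), MIR184 (3.81-fold) and MIR196A2 (3.80-fold). With GATA6-AS TFR1 they were MIR6799 (8.19-fold), MIR662 (6.80-fold), MIR6737 (6.21-fold), MIR12124 (5.96-fold) and MIR4251 (5.74-fold), then MIR6722 (5.00-fold), MIR5004 (4.95-fold), MIR3197 (4.89-fold), MIR5090 (4.88-fold) and MIR647 (4.81-fold).

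At the hairpins printed first, each oligo's own value stands beside the other's, and the ratios share the no-oligo libraries. Over MIR3138 the region of MEG3 TFR2 had 7.29-fold and that of GATA6-AS TFR1 4.55-fold. Over MIR6165 they had 6.50-fold and 4.33-fold, over MIR378I 4.46-fold and 2.21-fold, over MIR629 4.33-fold and 2.99-fold, over MIR3692 4.15-fold and 3.64-fold, and over MIR184 3.81-fold and 3.67-fold. Over MIR647 the region of MEG3 TFR1 had 4.24-fold and that of GATA6-AS TFR1 4.81-fold. The regions over MIR378I and MIR139 and the GATA6-AS TFR1 regions over MIR184 and MIR647 carry no microRNA name and are not members by the naming rule. All 3 oligos had a captured region over MIR139, inside the phosphodiesterase gene PDE2A, with 2.02-fold for MEG3 TFR1, 2.03-fold for MEG3 TFR2 and 1.97-fold for GATA6-AS TFR1. Over MIR219A1 the values were 2.14-fold, 2.15-fold and 2.93-fold. MIR139 and MIR219A1 were picked after their values were seen.

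**Figure D4:**
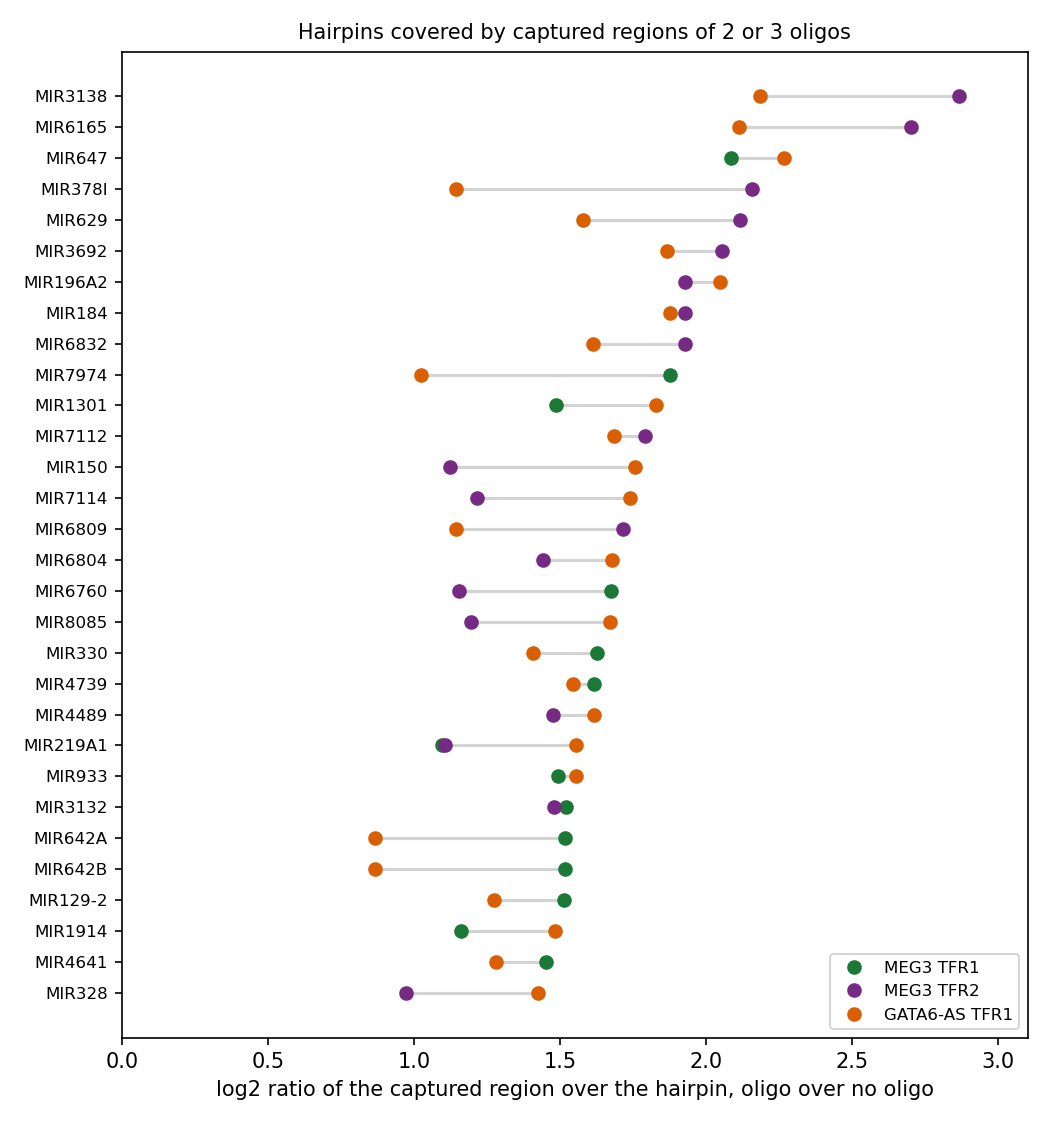
log2 ratio, oligo over no oligo, of the captured region over each hairpin, for the 30 hairpins with the highest ratio among those covered by more than 1 oligo. Grey lines join the oligos of a hairpin. The top point is MIR3138 with MEG3 TFR2 at 2.87, and no error can be given for a point.

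The microRNA genes with a captured region of each oligo within 1 kb, ordered by the lowest of their 3 ratios, began with MIR1469. The 3 ratios of a gene share the no-oligo libraries. MIR1469 lies inside NR2F2, the gene of the nuclear receptor COUP-TFII, and had 5.29-fold in the MEG3 TFR1 list, 5.00-fold in the MEG3 TFR2 list and 4.45-fold in the GATA6-AS TFR1 list. In the same order of oligos, MIR1181, inside the HSP90 cochaperone gene CDC37, had 6.79-fold, 3.94-fold and 4.88-fold. MIR6871, inside the phospholipase gene PLCG1, had 8.60-fold, 4.38-fold and 3.75-fold.

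Again in that order, MIR4323, inside the lymphoid factor gene POU2F2, had 3.89-fold, 3.38-fold and 3.61-fold, and MIR4523, inside the kinase gene TAOK1, had 3.28-fold, 4.11-fold and 4.44-fold. MIR4530 had 7.71-fold, 3.20-fold and 7.72-fold, and MIR6832, inside PRRC2A, had 3.93-fold, 3.80-fold and 3.06-fold. MIR146B, a microRNA of innate immune signalling, had 4.91-fold, 2.97-fold and 4.03-fold, with regions on both sides of the hairpin and none over it. MIR1914 and MIR647 lie 1 after the other in UCKL1 and share their regions, with 4.24-fold, 2.96-fold and 4.81-fold.

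The 6 listed microRNAs of HOX clusters, which lie among the genes that set position along the body axis, had a captured region within 1 kb in 6 cases with MEG3 TFR1, 2 with MEG3 TFR2 and 6 with GATA6-AS TFR1, and no control region. The shares over all microRNA genes were the 17.1%, 14.1% and 30.4% given above. Over or beside MIR196A2 the highest ratios were 2.95-fold in the MEG3 TFR1 list, 4.0-fold in the MEG3 TFR2 list and 4.13-fold in the GATA6-AS TFR1 list. Beside MIR10B, in the HOXD cluster, they were 3.36-fold, 3.76-fold and 1.99-fold. MIR10A had 2.11-fold with MEG3 TFR1 and 2.84-fold with GATA6-AS TFR1, MIR196A1 2.77-fold and 1.73-fold, MIR196B 2.02-fold and 2.60-fold, and MIR615 2.62-fold and 2.63-fold. Of all these regions, those of GATA6-AS TFR1 at MIR10B and MIR196B alone carried the microRNA's own name without a sign.

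The chromosome 19 microRNA cluster is primate-specific, imprinted and known for its expression in placenta. Of its 46 listed hairpins, 2 had a captured region within 1 kb with MEG3 TFR1, 2 with MEG3 TFR2 and 6 with GATA6-AS TFR1, while 8, 5 and 9 had a control region. Those control counts are 17.4%, 10.9% and 19.6% of the list, where 2.7%, 1.78% and 4.49% of all microRNA genes had one. Over MIR525 the control regions had log2 ratios of -1.54 with MEG3 TFR1, -2.10 with MEG3 TFR2 and -2.29 with GATA6-AS TFR1. Over MIR520D they had -1.33 for the first of the MEG3 oligos, TFR1, and -1.12 for GATA6-AS TFR1. Beside MIR1283-1 the values were -1.76, -1.30 and -1.42, and 1 stretch beside MIR516A2 and MIR519A2 had -1.11, -1.27 and -1.76. Neighbouring hairpins share regions, and all 3 lists share the no-oligo libraries. The copies of this cluster are alike in sequence, and how the authors treated reads that match several places is not given in the sources used here. Captured regions lay beside MIR498, with 3.57-fold for MEG3 TFR1 and 2.97-fold for GATA6-AS TFR1, and beside MIR518F with 2.98-fold for GATA6-AS TFR1.

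The microRNAs most used as markers of pluripotent stem cells, the cell type of H1, lie in the clusters of MIR302A and of MIR371A. Of 9 hairpins, 0 had a captured region within 1 kb with MEG3 TFR1, 4 with MEG3 TFR2 and 1 with GATA6-AS TFR1, that is 0%, 44.4% and 11.1%, against 17.1%, 14.1% and 30.4% of all microRNA genes. The share was thus above that of all genes with MEG3 TFR2, where 3 of the hairpins share a region, and below it with the other two. The regions lay beside MIR371A, MIR371B and MIR372 with 4.94-fold for MEG3 TFR2, a single region for all of them, and beside MIR373 with 1.99-fold for MEG3 TFR2 and 1.79-fold for GATA6-AS TFR1. No captured or control region lay within 1 kb of a hairpin of the MIR302A cluster. Of 9 hairpins in the cell-cycle clusters of MIR17 and MIR106B, 3 had a captured region within 1 kb with MEG3 TFR1, 0 with MEG3 TFR2 and 3 with GATA6-AS TFR1. These are 33.3%, 0% and 33.3%, to be read against the same shares of all microRNA genes. No hairpin of the MIR17 cluster had one. MIR106B, MIR93 and MIR25 inside MCM7 shared a region of MEG3 TFR1 with 2.94-fold, and had GATA6-AS TFR1 regions of 2.14-fold to 2.39-fold.

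Lists for differentiated tissues had the following counts, given for both MEG3 oligos (TFR1, then TFR2) and then for GATA6-AS TFR1. They are to be read against 17.1%, 14.1% and 30.4% of all microRNA genes. Of 13 neural hairpins, 3, 2 and 7 had a captured region within 1 kb (23.1%, 15.4% and 53.8%), near the share of all genes with the MEG3 oligos and above it with GATA6-AS TFR1. MIR9-3 had 7.38-fold with MEG3 TFR1 and 3.50-fold with GATA6-AS TFR1, and MIR124-3, of a family made in neurons, had 5.29-fold with GATA6-AS TFR1. MIR219A2, a microRNA of oligodendrocyte maturation, had 3.86-fold with MEG3 TFR1 and 2.31-fold with GATA6-AS TFR1. Of 11 epithelial and endoderm hairpins, 3, 1 and 8 had one (27.3%, 9.09% and 72.7%), again above the share of all genes with GATA6-AS TFR1. MIR200C and MIR141, which keep cells epithelial by acting on ZEB factors, shared a GATA6-AS TFR1 region of 4.04-fold. MIR192 and MIR194-2 shared a MEG3 TFR1 region of 5.29-fold.

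In the same order of oligos, of 9 muscle and heart hairpins, 5, 1 and 4 had a captured region (55.6%, 11.1% and 44.4%), above the share of all genes with MEG3 TFR1 and GATA6-AS TFR1. MIR208A, inside the heart myosin gene MYH6, had 3.30-fold, 3.24-fold and 2.83-fold, and MIR208B, inside MYH7, had 2.02-fold with MEG3 TFR1 and 3.56-fold with GATA6-AS TFR1. MIR206, a skeletal muscle microRNA, had 2.68-fold with MEG3 TFR1, and MIR1-2 had a control region with GATA6-AS TFR1 (-2.12). Of 10 blood and immune hairpins, 4, 2 and 4 had one (40%, 20% and 40%). MIR150, of lymphocytes, had 3.57-fold, 2.70-fold and 3.38-fold, and MIR142, made across blood cells, had 2.79-fold, 2.62-fold and 3.38-fold.

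In that order too, of 11 hairpins linked to TGF-beta and fibrosis, a pathway tied to MEG3 in other work, 0, 3 and 5 had a captured region (0%, 27.3% and 45.5%). MIR29B2 and MIR29C, which act on collagen messages, shared a MEG3 TFR2 region of 5.73-fold, and MIR143 had 2.51-fold with the same oligo. With GATA6-AS TFR1, the neighbours MIR23A, MIR24-2 and MIR27A had 1 value of 1.82-fold, and MIR29A and MIR29B1 1 value of 2.29-fold. These hairpins are thus not separate cases. MIR24-1 had a GATA6-AS TFR1 control region (-1.90). Of 6 hairpins of the MIR99A, MIR99B and MIR100 clusters, 2, 1 and 4 had one (33.3%, 16.7% and 66.7%). MIR99B had 8.11-fold in the MEG3 TFR1 list, 6.09-fold in the MEG3 TFR2 list and 2.66-fold in the GATA6-AS TFR1 list. MIRLET7E of the same cluster had 8.11-fold and 2.66-fold with MEG3 TFR1 and GATA6-AS TFR1. Over the let-7 family, 1, 1 and 3 of 10 hairpins had a captured region (10%, 10% and 30%), at or below the shares of all genes. MIRLET7I had a control region with MEG3 TFR2 (-1.66).

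Of 3 endothelial hairpins, 2, 2 and 3 had a captured region, in the same order, MIR10A and MIR10B of the HOX clusters among them, with MIR126 inside EGFL7 at 2.40-fold for MEG3 TFR2 and 2.85-fold for GATA6-AS TFR1. Of 9 hairpins of the p53 pathway, 1, 0 and 2 had one (11.1%, 0% and 22.2%, all below the shares of all genes), MIR192 again and MIR34C with 3.67-fold for GATA6-AS TFR1. Of 7 hairpins at imprinted loci, 2, 2 and 3 had one (28.6%, 28.6% and 42.9%), with MIR335 inside MEST at 3.04-fold for MEG3 TFR2 and 5.00-fold for GATA6-AS TFR1, and MIR483 inside IGF2 at 1.75-fold for MEG3 TFR1 and 1.73-fold for GATA6-AS TFR1. MIR298 had a captured region with MEG3 TFR1 (2.65-fold) and a control region with GATA6-AS TFR1 (-1.60). MIR296 had the same control value with that oligo. Thus 2 of the 7 hairpins (28.6%) had a GATA6-AS TFR1 control region, against 4.49% of all microRNA genes. Of 112 hairpins of high-copy families such as miR-548, 6, 4 and 10 had a captured region, or 5.36%, 3.57% and 8.93%, below the shares over all microRNA genes. Several lists hold fewer than 12 hairpins, so 1 hairpin moves their share by many points.

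**Figure D5:**
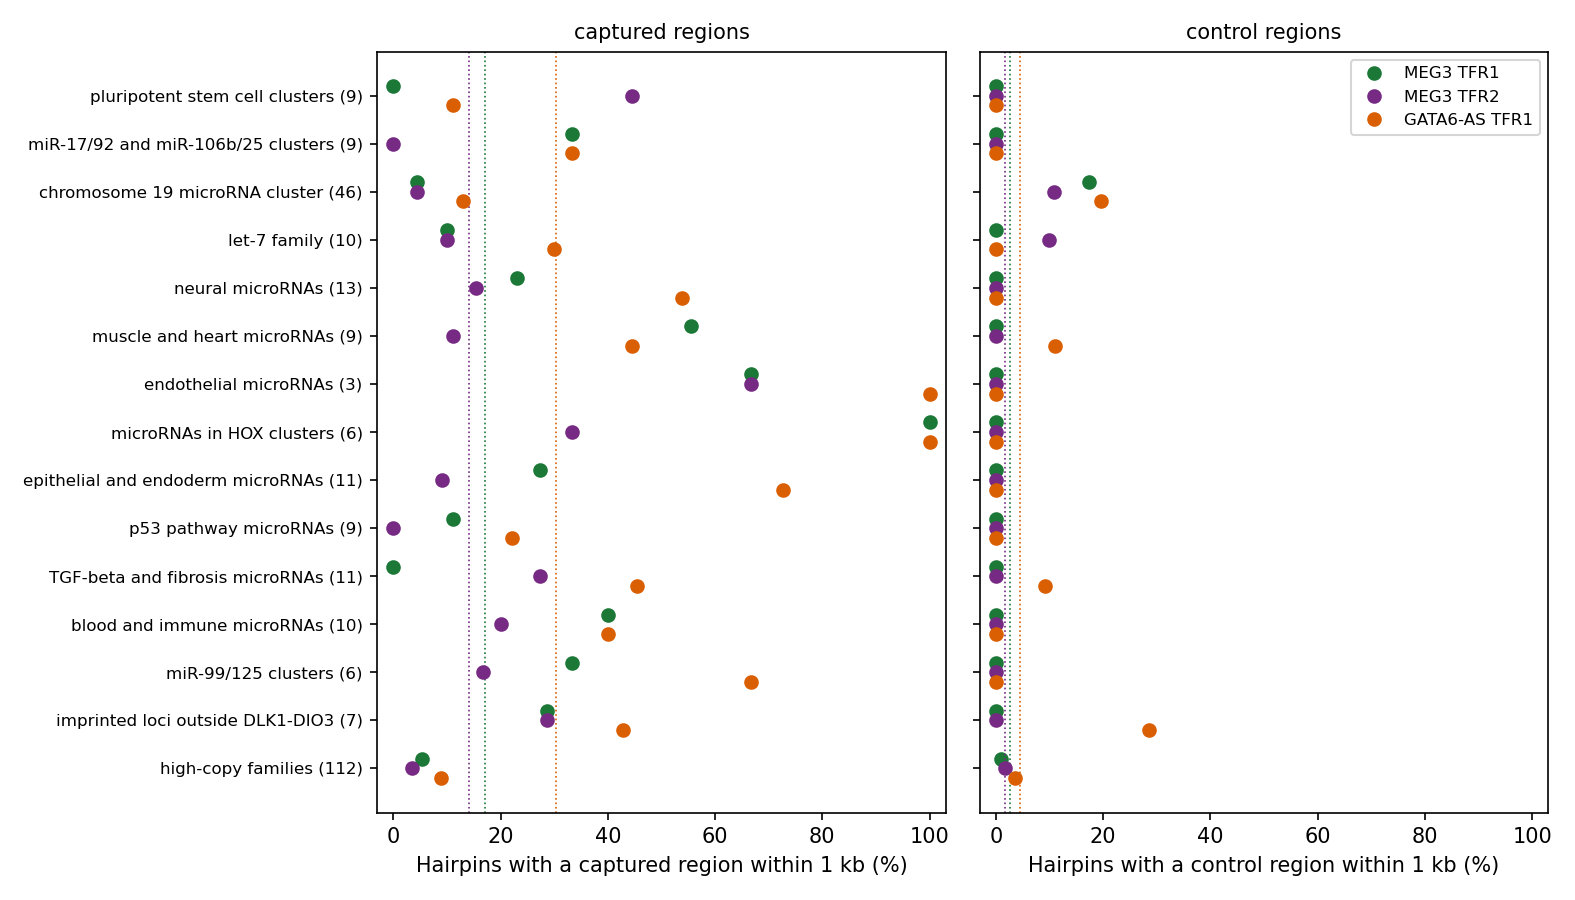
Share of hairpins (%) with a captured (left) or control (right) region within 1 kb, for each of 15 microRNA lists with the number of hairpins in brackets, by oligo. Dotted lines give the share over all 1739 microRNA genes; the HOX cluster list stands at 100% with MEG3 TFR1 and GATA6-AS TFR1, and the chromosome 19 cluster stands to the right of all 3 lines for control regions.

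Base composition moved with capture. The median GC content was 59.8% for hairpins covered by a captured region of MEG3 TFR1, 60.6% under MEG3 TFR2 regions and 61.9% under GATA6-AS TFR1 regions, against 50.6% for hairpins covered by none and 52.9% for all 1411 hairpins in the sequence table. Hairpins covered by control regions had 47.9%, 47.1% and 51.1%, over 6, 3 and 11 hairpins. The part of base composition in the other results was not tested. Runs of at least 15 purines or at least 15 pyrimidines, which are purine runs on the other strand, were found in 7 of 59 hairpins covered by MEG3 TFR1 (11.9%), 5 of 56 covered by MEG3 TFR2 (8.93%) and 9 of 177 covered by GATA6-AS TFR1 (5.08%), against 4.18% of all hairpins. The next hairpins have their longest purine or pyrimidine run in capitals and were chosen after their values were seen. MIR4739 and MIR6809 were covered by captured regions, MIR525 and MIR520D by control regions.
MIR4739 hairpin: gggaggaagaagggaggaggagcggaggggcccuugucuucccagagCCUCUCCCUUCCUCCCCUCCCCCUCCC
MIR6809 hairpin: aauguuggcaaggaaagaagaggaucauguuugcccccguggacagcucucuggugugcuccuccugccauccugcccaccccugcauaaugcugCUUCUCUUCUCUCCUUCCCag
MIR525 hairpin: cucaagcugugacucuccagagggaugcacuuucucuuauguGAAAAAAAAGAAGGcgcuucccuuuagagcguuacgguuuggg
MIR520D hairpin: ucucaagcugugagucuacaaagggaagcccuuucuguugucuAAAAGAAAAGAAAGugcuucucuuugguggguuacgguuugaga
MIR4739 (chr17:79707176-79707249, minus strand) has a pyrimidine run of 27 bases and had 3.07-fold with MEG3 TFR1 and 2.92-fold with GATA6-AS TFR1. MIR6809 (chr2:217900513-217900628, minus strand), inside TNS1, has a run of 19 bases and had 3.28-fold with MEG3 TFR2 and 2.21-fold with GATA6-AS TFR1. The hairpins of MIR525 and MIR520D have purine runs of 14 bases each and were covered by control regions. A run is a description of letters and no binding site.

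At the promoters of host genes, the shares were close to those of all promoters. Of 82 RefSeq promoter windows of host genes, 6 (7.32%) held a captured region of MEG3 TFR1, 3 (3.66%) of MEG3 TFR2 and 12 (14.6%) of GATA6-AS TFR1, against 6.54%, 3.16% and 14.6% of all 33725 windows. Control regions touched 0, 0 and 1 host gene windows, against 0.222%, 0.219% and 0.629% of all windows. Runs of at least 15 bases stood in 32.9% of host gene windows and 19.7% of all windows. The promoters shown belong to 3 of the 6 host genes with a captured member region at a promoter window and were chosen after their values were seen. They are given in 300 bp RefSeq windows of GRCh38.p14 with the longest run in capitals.
MIR142HG promoter: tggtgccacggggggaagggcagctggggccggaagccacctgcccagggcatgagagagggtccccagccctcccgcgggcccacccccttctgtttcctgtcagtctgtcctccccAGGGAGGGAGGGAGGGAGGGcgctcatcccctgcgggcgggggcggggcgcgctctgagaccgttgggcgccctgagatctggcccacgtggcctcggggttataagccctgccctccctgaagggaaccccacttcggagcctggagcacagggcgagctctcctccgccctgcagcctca
MIR200CHG promoter: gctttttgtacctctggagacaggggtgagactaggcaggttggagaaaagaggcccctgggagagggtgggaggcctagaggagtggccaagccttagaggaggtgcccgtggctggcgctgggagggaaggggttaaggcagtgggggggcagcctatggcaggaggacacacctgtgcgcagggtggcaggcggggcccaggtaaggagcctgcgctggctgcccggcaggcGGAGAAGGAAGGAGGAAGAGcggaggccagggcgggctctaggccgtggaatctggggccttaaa
MIR193BHG promoter: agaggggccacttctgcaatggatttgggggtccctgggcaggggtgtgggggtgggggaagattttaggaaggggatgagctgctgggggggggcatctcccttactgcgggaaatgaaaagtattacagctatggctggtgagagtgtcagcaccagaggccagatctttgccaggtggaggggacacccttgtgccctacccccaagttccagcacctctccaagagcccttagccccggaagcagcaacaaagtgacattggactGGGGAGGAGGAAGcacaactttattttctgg
The MIR142HG window (chr17:58332471-58332770, minus strand) holds a purine run of 20 bases in which AGGG repeats, and was touched by captured regions of MEG3 TFR1 (2.79-fold), MEG3 TFR2 (2.92-fold) and GATA6-AS TFR1 (3.35-fold). The MIR200CHG window (chr12:6962995-6963294, plus strand) holds a purine run of 20 bases and lay in a GATA6-AS TFR1 region of 4.04-fold. The MIR193BHG window (chr16:14301131-14301430, plus strand) holds a run of 13 bases and had a GATA6-AS TFR1 region of 4.55-fold. The window with the highest ratio was that of MIR9-2HG, host of a neural microRNA, with 12.7-fold for MEG3 TFR1 and a pyrimidine run of 37 bases, in a region that the authors named LINC00461.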

How the data were processed

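Biotinylated RNA oligos were used to recover DNA of H1 cells in 8 libraries, 2 for each of 3 oligos and 2 with no oligo. FastQC, BWA 0.7.15-r1140 and the build hg38 are named in the submitters' processing notes. The lists' names call the regions differential peaks and carry a setting whose meaning no source used here states; the caller and the scaling are not given either. The 6 deposited lists hold a position, names and 1 value per region. Per the deposited values, the authors' column is a log2 ratio: for 99.7% of members its antilog was a fraction of integers, with at most 400 below the line and a tolerance of 3e-10. Libraries were pooled in each list, so a library's value, depth or error could not be had, and the ratios are the authors' own. Members were found by name, and their genes, hairpins and promoters came from RefSeq tables of GRCh38.p14, where 1180 of 1196 names matched and 16 did not. Shares have 95% Wilson intervals. No test was made, since the lists hold no replicates. Named were, per oligo, the 10 highest captured and 5 lowest control member regions, the 5 names with most captured regions and the 10 highest covered hairpins, then the 10 genes highest by their lowest ratio over 3 oligos and up to 4 members of each list. Other genes were named after their values were seen. The members and the 15 lists were chosen with earlier results of these data known. The alternatives were a log2 ratio of at least 1.5, the named gene within 50 kb, joining within 200 bp, no host gene names, and distances of 0 and 5 kb. Loci counted by number of oligos are not reported, because all lists share the no-oligo libraries. The distance code was tested on simulated data. Python 3.11.15 with numpy 2.4.6, pandas 2.3.3, scipy 1.17.1 and matplotlib 3.10.9 was used.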

Additional observations from a re-analysis of the deposited data

How the results depend on the processing

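Of 78 values recomputed under other settings, 36 stayed within their counting interval or within 1.5 times the count, and 42 did not. The order of captured and control shares turned for both MEG3 oligos: with the named gene within 50 kb the captured share lay below the control share, and with log2 ratios of at least 1.5 it did so for MEG3 TFR2 (1.34% and 1.38%). Dropping log2 ratios smaller than 1.5 in size left 6.26 captured per control region for MEG3 TFR1. For GATA6-AS TFR1 it left 2.43, and microRNA names on 1.21% of control regions. It gave median log2 ratios of 1.83, 1.81 and 1.79 and median widths of 300, 300 and 350 bp, for MEG3 TFR1 first, then MEG3 TFR2 and GATA6-AS TFR1. In that order of oligos, as below, it left 448, 367 and 454 names, 131, 109 and 223 microRNA genes within 1 kb of a captured region, and 18, 12 and 28 list members. Requiring the named gene within 50 kb left 0.919%, 0.952% and 1.06% of captured regions and 0.996%, 1.11% and 0.966% of control regions. It left 6.55 captured per control region with MEG3 TFR1. Under it, 80, 95 and 225 genes and 9, 12 and 39 list members were counted, from microRNA-named regions only. The main counts of genes and list members took captured regions of any name, so they differ from these in more than the distance. Without host gene names the captured shares were 1.35%, 1.31% and 1.46%, and the GATA6-AS TFR1 control share 1.18%. Joining regions within 200 bp moved the GATA6-AS TFR1 median log2 ratio to 1.38. Captured regions over the hairpin were had by 69, 62 and 206 genes, and within 5 kb by 752, 716 and 906. The counts shift by construction, with fewer regions or another distance. The median log2 ratios also rise by construction where ratios below 1.5 in size are dropped. The shares fall by construction within 50 kb and without host gene names, where members are dropped from an unchanged list. For the other shares and medians, the captured per control ratios and the widths, the cause was not tested.

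No paired analysis was possible because the lists pool the libraries and hold no value per replicate. For the same reason no replicate was left out, and the depth and the error of a ratio are unknown. The planned overlap of the shorter region was not run, as loci shared by oligos are not reported.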
